A study of Rattus norvegicus with 6 samples.

Results

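Heat shock proteins and cytosolic chaperonins fold and hold proteins in the cytosol, and 38 genes of this group, with mitochondrial relatives, were followed here in rat pancreas with and without acute pancreatitis (AP). The members comprise 12 inducible heat shock proteins, the transcription factor Hsf1, 7 constitutive cytosolic chaperones, 6 cochaperones of HSP90, the 8 subunits of the chaperonin CCT and 4 mitochondrial chaperones. A member counted as measured where the transcript identifier of a non-control probe belonged to its gene in a RefSeq gene table. This held for 31 genes with 32 probes, of 13903 genes so matched on the array. No probe was matched to Hspa1a, Hspa1b, Dnajb1, Hsf1, Hspa1l, Ahsa1 or Fkbp4, so the classical inducible HSP70 genes are not analysed here. A total of 28 members were bright enough to be tested.

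Cells keep proteins soluble with a few chaperone families. HSP70 proteins bind exposed hydrophobic stretches, J-domain proteins (the HSP40 family) bring them their clients, and nucleotide exchange factors release them. HSP90 works later, on kinases and receptors among others, and is served by its own cochaperones. CCT, also called TRiC, is a ring-shaped chamber that folds actin and tubulin, and HSP60 with its lid HSP10 does a like task inside mitochondria. Heat and other protein-damaging stresses raise the inducible members through heat shock factor 1 (HSF1), which binds arrays of the sequence unit GAA and its reverse complement TTC. The acinar cells of the pancreas make large amounts of secreted enzymes, and heat shock proteins have long been studied in experimental pancreatitis.

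The tissue came from male rats of 6 weeks. In the AP group, a 4% solution of the bile salt sodium taurocholate had been pushed backwards into the pancreatic duct at 1 mL/kg, and tissue was taken 9 h later. Controls are labelled as control pancreas only, and no sham operation, strain or genotype is given for either group. Total RNA was depleted of ribosomal RNA, labelled with Cy3 by random priming and hybridised to 1-colour Agilent arrays.

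Each group had 3 deposited scans, but AP 2 and AP 3 were scans of 1 array, and so were control 2 and control 3. Residuals of single spots from their probe mean correlated with r = 0.992 in the AP pair and r = 0.993 in the control pair, across 1668 spots, and with 0.193 to 0.742 in the other pairs. Their scans were averaged, which left 2 arrays per group, and this number limits the precision of every value. Labels do not tie an array to an animal, so p-values measure only the spread between these arrays, which may be technical. All arrays lay on 1 slide, with AP in slots 3 and 4 and control in slots 1 and 2, so slot and group cannot be told apart. The 75th percentile of the signal was 70.1 to 77.7 on the AP scans and 140 to 147 on the control scans, and no spot was saturated. Probes well above background numbered 10905 to 11367 on the AP scans and 13039 to 15388 on the control scans. Levels are log2 signals minus the 75th percentile of their array, so a value of 0 lies at that percentile, and a fold change is a difference of levels, AP minus control. Without this scaling the median log2 fold change over all 8728 tested genes was -0.99, against -0.03 with it.

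Taken over all roles, 18 of the 28 tested members were lower on the arrays labelled AP and 0 were higher at an adjusted p below 0.05 in limma, while 10 did not pass. At an unadjusted p below 0.05 the counts were 18 lower and 1 higher (Hsp90ab1). The share of all genes at that threshold was not counted, here or for the unadjusted counts below. At the adjusted threshold 31.9% of all tested genes were called lower and 24.1% higher, and of all tested probes 28.2% lower and 26.9% higher. The members' median log2 fold change was -0.83, beside -0.03 over all genes. All of the 18 lower members stood lower on both AP arrays than on either control array, and 25 of the 28 fold changes were below 0. These counts cover members that passed a filter on dim probes: 25 were above background on all scans, while Dnajb4 and Hspa9 passed it through the control scans alone and neither was called. With no filter the count of lower members was again 18. The direction follows the deposited labels. Of 5 tested markers of neutrophils, cells that enter the inflamed gland, 3 were lower and 1 was higher on the arrays labelled AP. Under another background correction (normexp) 1 was lower and 1 higher. Of 10 other genes that HSF1 drives 7 were lower and 1 was higher. All 12 tested genes of a T and B lymphocyte list, which includes the chemokine gene Ccl21, were higher. Of 7 macrophage markers 1 was lower and 2 were higher. Whether labels and arrays were exchanged was not tested, and such an exchange would turn the sign of every fold change here. In these bulk samples fewer cells of a type and less RNA per cell cannot be told apart.

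**Figure D1:**
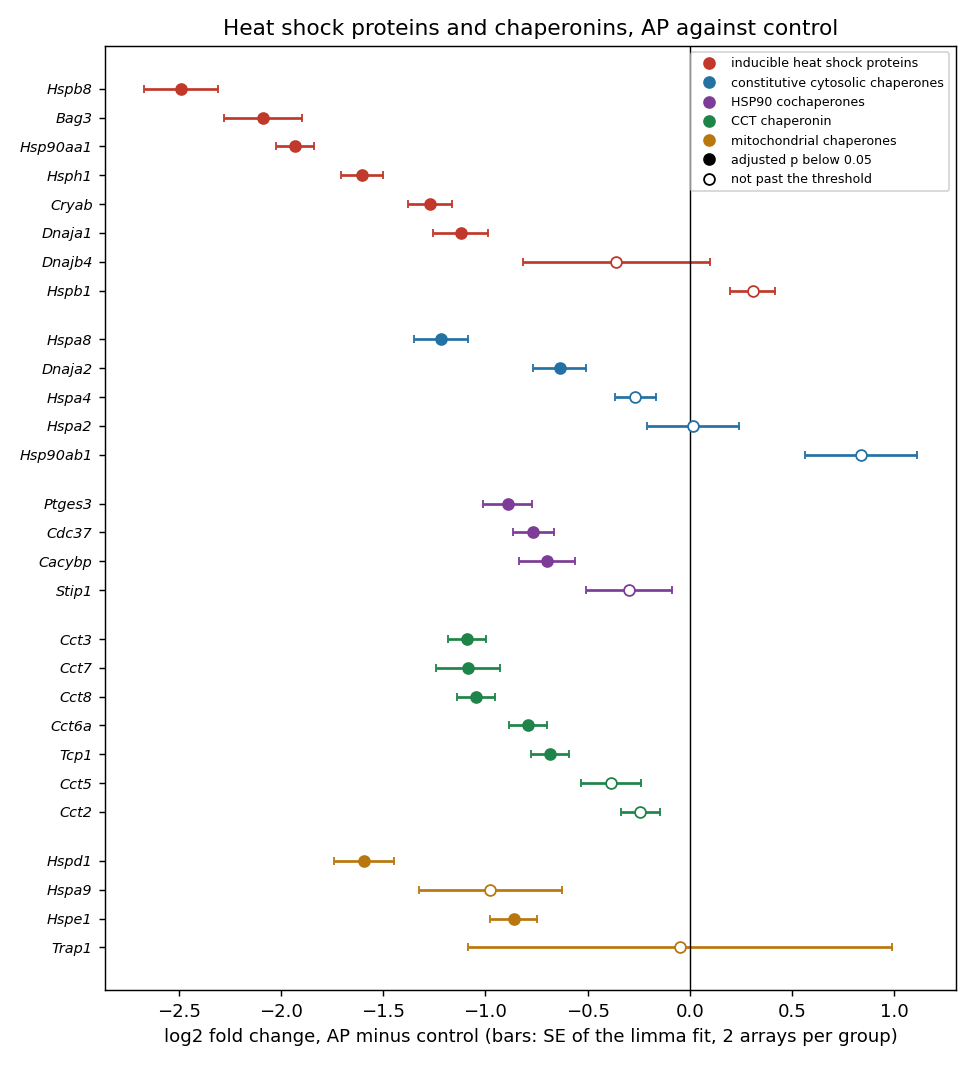
Log2 fold change of each of the 28 tested members, AP minus control, on the horizontal axis, with the genes grouped by role down the page. Points are limma estimates from 2 arrays per group, bars their SE, and filled points have an adjusted p below 0.05; 18 filled points lie left of 0 and none lies right of it.

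Promoter sequences are shown for members whose proximal promoter holds at least a pair of the units GAA and TTC, arrays of which HSF1 binds. The proximal promoter is the 250 bases before the RefSeq transcript start (rat build GRCr8). A pair alone is shorter than a full heat shock element, the array that HSF1 binds. The motifs searched were the tail-to-tail pair TTCNNGAA and the head-to-head pair GAANNTTC. Triple arrays were GAANNTTCNNGAA or TTCNNGAANNTTC; a triple holds both pairs, and each pair reads the same on both strands. Capitals mark the pairs and triples, and sequences run 5′ to 3′ on the strand of the gene. Triples were found in 4 of the 26 member promoters in the table, those of Hspd1, Hspe1, Hspa8 and Hsph1, and in 0.663% of all 33469 promoters. The windows shown are chr9:64084188-64084287 (minus strand) for Hspd1, chr9:64084207-64084326 (plus) for Hspe1, chr8:50080264-50080513 (plus) for Hspa8 and chr12:10427248-10427367 (plus) for Hsph1.
Hspd1: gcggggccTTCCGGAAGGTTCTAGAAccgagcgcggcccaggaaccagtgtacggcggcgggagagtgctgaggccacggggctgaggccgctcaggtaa
Hspe1: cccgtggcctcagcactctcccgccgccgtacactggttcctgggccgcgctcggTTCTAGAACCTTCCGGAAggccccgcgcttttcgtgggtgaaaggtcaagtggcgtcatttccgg
Hspa8: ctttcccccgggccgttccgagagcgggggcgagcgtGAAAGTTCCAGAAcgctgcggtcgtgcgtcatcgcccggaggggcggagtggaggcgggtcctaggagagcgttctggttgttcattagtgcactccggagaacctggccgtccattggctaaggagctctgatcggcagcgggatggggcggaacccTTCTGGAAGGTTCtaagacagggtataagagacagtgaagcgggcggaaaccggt
Hsph1: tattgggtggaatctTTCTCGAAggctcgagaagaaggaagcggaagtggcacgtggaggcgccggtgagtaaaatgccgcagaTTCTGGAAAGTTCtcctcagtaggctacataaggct

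Hspd1 and Hspe1 are read away from each other, with starts 290 bases apart, and the 211 bases that their promoter windows share are the same DNA. The capitals of the Hspd1 line are therefore those of the Hspe1 line on the other strand. All 4 of these genes were lower on the AP arrays. Pairs are shown next for the inducible members that hold no triple: Bag3 at chr1:192533308-192533355 (plus), Dnaja1 at chr5:60638203-60638250 (plus), Hspb8 at chr12:45837265-45837307 (plus) and Hspb1 at chr12:26432383-26432450 (minus).
Bag3: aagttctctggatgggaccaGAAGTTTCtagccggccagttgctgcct
Dnaja1: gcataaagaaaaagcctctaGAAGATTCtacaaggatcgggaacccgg
Hspb8: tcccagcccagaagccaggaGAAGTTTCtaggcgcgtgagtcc
Hspb1: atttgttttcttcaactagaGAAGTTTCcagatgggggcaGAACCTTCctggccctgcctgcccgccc

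Bag3, Dnaja1 and Hspb8 were lower on the AP arrays, while Hspb1 was not called. A pair stood in 5 of 6 promoters of inducible members, 2 of 4 of constitutive chaperones, 3 of 4 of HSP90 cochaperones, 2 of 8 of CCT subunits and 3 of 4 of mitochondrial chaperones. Together that was 15 of 26, beside 13.5% of all promoters. No promoter was at hand for Hsp90aa1, Cryab, Dnajb4, Dnaja2 and St13, and of these Hsp90aa1, Cryab and Dnaja2 were called lower. Among tested members, 10 of the 15 with a pair were lower (median log2 fold change -0.86), and so were 5 of the 9 without one (median -0.68). A match is a description of these letters and not a measured binding site, and the search covered no other part of the genes.

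Among the inducible heat shock proteins 6 of 8 tested members were lower and 0 were higher, with a median log2 fold change of -1.44. Hspb8, a small heat shock protein, had levels of -1.55 and -1.70 on the AP arrays, against 0.67 and 1.07 on the control arrays. It was 5.61-fold lower (-2.49 ± 0.18 in log2, with the SE of 2 arrays per group, adjusted p = 0.00229), the farthest from 0 of all tested members. Bag3, the cochaperone that couples HSPB8 and HSP70 to autophagy, stood at -0.90 and -0.44 on the AP arrays and at 1.39 and 1.45 on the control arrays. It was 4.25-fold lower (-2.09 ± 0.19, adjusted p = 0.00363). Both partners of this complex thus differed between the groups by far more than their arrays differed within a group. Under normexp background correction the differences were smaller, -0.97 for Hspb8 and -1.09 for Bag3, and both were still called.

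Hsp90aa1, the stress-inducible form of cytosolic HSP90, had 3.86 and 3.81 on the AP arrays and 5.75 and 5.78 on the control arrays, and was 3.81-fold lower (-1.93 ± 0.09, SE of 2 arrays per group, adjusted p = 0.00111). Hsph1, an HSP110 that acts as exchange factor of HSP70, had 1.54 and 1.57 on the AP arrays and 3.09 and 3.22 on the control arrays, and was 3.04-fold lower (-1.60 ± 0.10, adjusted p = 0.0018). Within each group the arrays lay close together for both genes. Cryab, the small heat shock protein alpha B-crystallin, stood at 1.21 and 1.16 on the AP arrays and at 2.38 and 2.53 on the control arrays (-1.27 ± 0.11, adjusted p = 0.00313). Dnaja1, a J-domain partner of HSP70, stood at 2.82 and 3.08 on the AP arrays and at 4.04 and 4.10 on the control arrays (-1.12 ± 0.13, adjusted p = 0.00615). Neither gene's groups overlapped, which a call from 2 arrays per group nearly requires.

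Hspb1, the small heat shock protein HSP27 in human cells, did not share this pattern. Its levels were 7.71 and 7.78 on the AP arrays and 7.52 and 7.35 on the control arrays (0.31 ± 0.11, SE of 2 arrays per group, adjusted p = 0.0881). The sign of this difference depended on the scaling: it was -0.65 without scaling (adjusted p = 0.0141), -0.27 under quantile normalization, -0.25 in the deposited normalized values and -0.18 under normexp. It was called higher with the percentile taken over detected probes (0.46, adjusted p = 0.0413), when the 6 scans counted as replicates (0.35, 0.00479) and when these were blocked by scan session (0.35, 0.013). Both fits to the 6 scans count scans of 1 array as replicates. Dnajb4, another J-domain protein, had -1.98 and -3.20 on the AP arrays, where it was not well above background, and -2.21 and -2.25 on the control arrays (-0.36 ± 0.46, adjusted p = 0.547). Without AP replicate 1 it was at -0.97 and called lower (adjusted p = 0.024). Chordc1, an HSP90-binding protein, stood at background on all scans and was not tested.

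**Figure D2:**
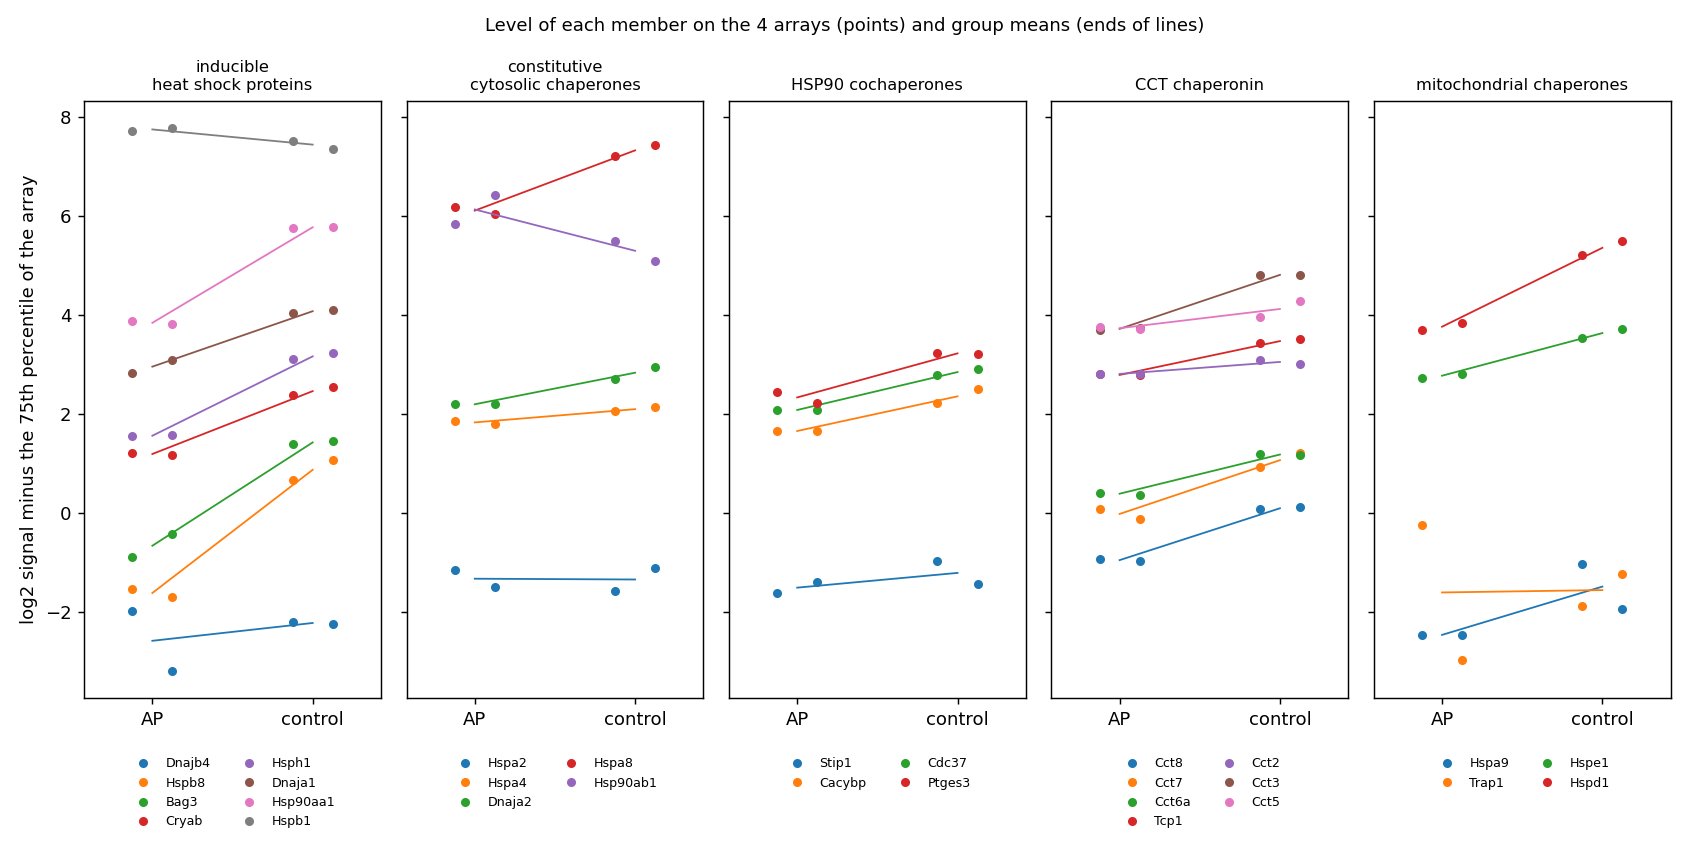
Level of each tested member on every array, as log2 signal minus the 75th percentile of the array on the vertical axis, with 1 panel per role and the AP arrays left of the control arrays in each. Points are arrays and lines join group means; most lines climb towards control, and those of Hspb1 and Hsp90ab1 fall towards it.

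The constitutive cytosolic chaperones were less uniform: 2 of 5 were lower, 0 were higher and 3 did not pass (median -0.27). Hspa8, the constitutive HSP70 known as HSC70, had levels of 6.17 and 6.03 on the AP arrays and 7.21 and 7.43 on the control arrays. Its log2 fold change was -1.22 ± 0.13 (SE from 2 arrays per group, adjusted p = 0.00519). Dnaja2, one of its J-domain partners, stood at 2.19 and 2.19 on the AP arrays and at 2.70 and 2.95 on the control arrays (-0.64 ± 0.13, adjusted p = 0.0215). Its call was among the weakest: it was lost with the replicate number as a block (0.0566), without AP replicate 1 (0.0816), without the second AP array (0.0854) and without the second control array (0.0714).

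Hspa4, an exchange factor of the HSP110 group, had 1.86 and 1.79 on the AP arrays and 2.05 and 2.13 on the control arrays (-0.27 ± 0.10, adjusted p = 0.0941). It was called lower in 4 of 22 alternatives: without scaling (0.00212), with a robust variance trend (0.0409) and in the fits that count scans of 1 array as replicates. Hspa2, an HSP70 best known from testis, had -1.16 and -1.51 on the AP arrays and -1.57 and -1.13 on the control arrays (0.02 ± 0.23, adjusted p = 0.957), and its groups overlapped. Its difference was -0.94 without scaling (adjusted p = 0.0294). St13, the HSP70-interacting protein HIP, stood at background on all scans and was not tested.

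Hsp90ab1, the constitutive form of cytosolic HSP90, pointed the other way from its inducible paralog. It was the only member with 2 probes, and the brighter one, used for the counts, had 5.84 and 6.41 on the AP arrays and 5.50 and 5.08 on the control arrays (0.84 ± 0.27, SE of 2 arrays per group, adjusted p = 0.0708). The other probe had 5.88 and 6.12 on the AP arrays and 4.49 and 5.07 on the control arrays, and was 2.33-fold higher (1.22 ± 0.25, adjusted p = 0.0216). AP levels lay above control levels on both probes, with a call on 1 of them. That call was lost without AP replicate 1 (adjusted p = 0.0645) and without the second AP array (0.094), while the brighter probe was called higher in 4 alternatives (adjusted p = 0.00588 to 0.0457) and the mean of both probes was too (0.0145). Without scaling the differences were -0.12 and 0.26, and neither passed.

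Within an array, the log2 ratio of Hsp90ab1 to Hsp90aa1 was 1.98 and 2.61 on the AP arrays and -0.25 and -0.70 on the control arrays, and this ratio does not depend on the scaling by percentile. The difference of the mean ratios was 2.77, or 3.15 with the other Hsp90ab1 probe. The ratios thus differed far more between the groups than within them; a ratio of probes is read here for its difference between arrays and not as a ratio of transcript levels. A further ratio, of Hspb1 to Hspb8, was 9.26 and 9.48 on the AP arrays and 6.85 and 6.29 on the control arrays. An exact two-sided permutation test of such a ratio gave p = 0.333, the smallest that 2 arrays against 2 allow, and the pairs were picked with the results known.

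Of the HSP90 cochaperones 3 of 4 were lower and 0 were higher (median -0.73). Ptges3, the cochaperone p23 that holds HSP90 closed on its client, had 2.44 and 2.22 on the AP arrays and 3.23 and 3.21 on the control arrays (-0.89 ± 0.12, SE of 2 arrays per group, adjusted p = 0.00804). Cdc37, which brings kinases to HSP90, had 2.07 and 2.07 on the AP arrays and 2.78 and 2.90 on the control arrays (-0.77 ± 0.10, adjusted p = 0.0076). These differences were several times their errors. Cacybp, the calcyclin-binding protein, had 1.65 and 1.65 on the AP arrays and 2.21 and 2.49 on the control arrays (-0.70 ± 0.14, adjusted p = 0.02). Stip1, the adaptor HOP between HSP70 and HSP90, had -1.62 and -1.41 on the AP arrays and -0.98 and -1.45 on the control arrays, where the groups overlapped (-0.30 ± 0.21, adjusted p = 0.295). It was called lower only without scaling (-1.25, adjusted p = 0.00864). Without the second control array the count of lower cochaperones fell to 1, as Ptges3 (adjusted p = 0.0511) and Cacybp (0.0628) lost their calls, and Cacybp also lost it without AP replicate 1 (0.078), without the second AP array (0.0817) and under the replicate block (0.0516).

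The subunits of the CCT chaperonin shared 1 sign. All 7 tested subunits had negative fold changes, 5 of them were called lower and 0 higher, and the median was -0.79. Cct3 had 3.69 and 3.74 on the AP arrays and 4.81 and 4.80 on the control arrays, and was 2.13-fold lower (-1.09 ± 0.09, SE of 2 arrays per group, adjusted p = 0.00308). Cct7 stood at 0.07 and -0.13 on the AP arrays and at 0.92 and 1.20 on the control arrays (-1.09 ± 0.16, adjusted p = 0.00919). Cct8 stood at -0.94 and -0.98 on the AP arrays and at 0.07 and 0.11 on the control arrays (-1.05 ± 0.09, adjusted p = 0.0034). These 3 subunits differed by about the same amount. Under normexp background correction Cct8 was at -0.40 and lost its call (adjusted p = 0.268).

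Cct6a had 0.40 and 0.36 on the AP arrays and 1.19 and 1.16 on the control arrays (-0.79 ± 0.09, SE of 2 arrays per group, adjusted p = 0.00587). Tcp1, the first subunit of the ring to be named, had 2.79 and 2.77 on the AP arrays and 3.43 and 3.50 on the control arrays (-0.68 ± 0.09, adjusted p = 0.00852), and it lost its call without the second control array (0.0511). Smaller differences were found for the remaining tested subunits, which did not pass. Cct5 had 3.75 and 3.70 on the AP arrays and 3.96 and 4.27 on the control arrays (-0.39 ± 0.15, adjusted p = 0.0966), and Cct2 had 2.80 and 2.81 on the AP arrays and 3.09 and 3.00 on the control arrays (-0.24 ± 0.10, adjusted p = 0.11). Cct5 was called lower in 4 of 22 alternatives, among them quantile normalization (adjusted p = 0.0469), and Cct2 in 3 of 22. For both these included no scaling and the fits that count scans of 1 array as replicates. Cct4 stood at background on all scans and was not tested.

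The estimated RNA fold changes of the subunits, each from a single probe, were not equal in size. Cct3 and Cct2 had the lowest and the highest of them, so a difference in their ratio was fixed by the choice of this pair. The log2 ratio of Cct3 to Cct2 was 0.89 and 0.93 on the AP arrays and 1.72 and 1.80 on the control arrays, a difference of -0.85. Across the tested subunits fold changes ran from -1.09 to -0.24, a narrower range than that of the inducible members, from -2.49 to 0.31.

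The mitochondrial chaperones were led by Hspd1, which encodes HSP60. It had 3.69 and 3.82 on the AP arrays and 5.20 and 5.50 on the control arrays, and was 3.02-fold lower (-1.59 ± 0.15, SE of 2 arrays per group, adjusted p = 0.00376). Hspe1, which encodes its lid HSP10, had 2.73 and 2.81 on the AP arrays and 3.54 and 3.72 on the control arrays, and was 1.82-fold lower (-0.86 ± 0.12, adjusted p = 0.0079). Thus both genes of the shared promoter shown above were lower, and by different amounts. The log2 ratio of Hspd1 to Hspe1 was 0.96 and 1.02 on the AP arrays and 1.67 and 1.78 on the control arrays, a difference of -0.73.

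Hspa9, the mitochondrial HSP70 mortalin, had -2.47 and -2.48 on the AP arrays, where it was not well above background, and -1.04 and -1.95 on the control arrays. The bound taken from the group means was 1.91-fold lower. As the control arrays lay far apart, that is not a minimum difference, and Hspa9 did not pass (adjusted p = 0.0857). It was called lower in 6 alternatives, among them quantile normalization (-1.12, adjusted p = 0.0368) and the deposited normalized values (-1.13, 0.0363), and was at 0.12 under normexp. Others of the 6 counted scans of 1 array as replicates or left 1 control array. Trap1, the mitochondrial HSP90, had -0.24 and -2.98 on the AP arrays and -1.89 and -1.24 on the control arrays (-0.05 ± 1.04, adjusted p = 0.972), so its AP arrays lay farther apart than the groups. With Hspa9 at its bound the median of the 4 mitochondrial members was -0.90, against -0.92 as fitted, and 2 of 4 were lower and 0 higher.

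**Figure D3:**
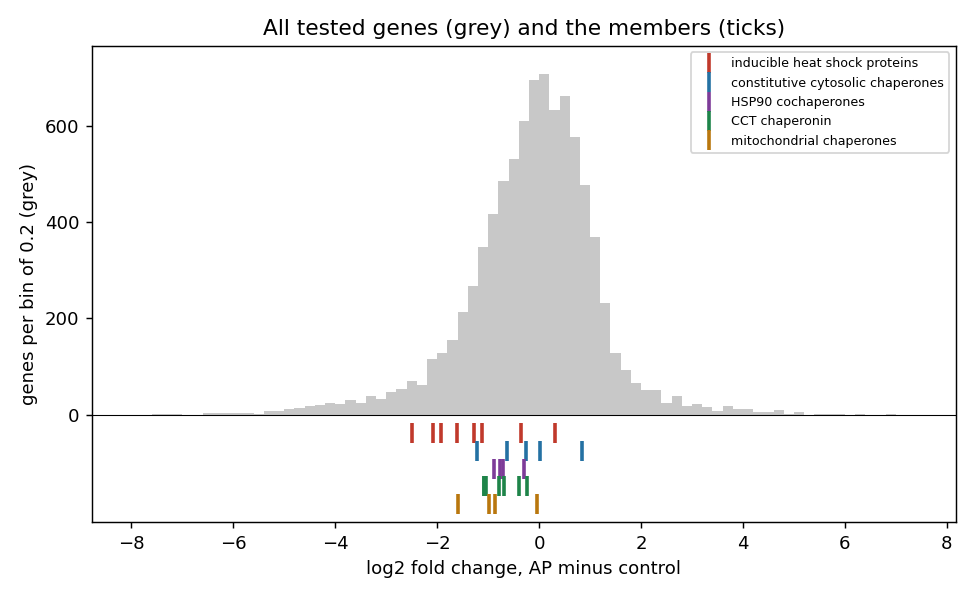
Distribution of log2 fold changes, AP minus control, on the horizontal axis: the grey histogram counts the 8728 tested genes per bin, and coloured ticks under it are the 28 members by role. Ticks run from -2.49 (Hspb8) to 0.84 (Hsp90ab1), inside the range of all genes and mostly left of 0.

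Scaling set the size of these differences and, for most members, not their sign. The members' median log2 fold change was -1.78 without scaling, -0.71 under quantile normalization and -0.72 in the deposited normalized values, beside medians over all genes of -0.99, -0.04 and -0.04. By role, the medians under quantile normalization were -1.28 for the inducible members, -0.09 for the constitutive chaperones, -0.55 for the HSP90 cochaperones, -0.70 for CCT and -0.93 for the mitochondrial chaperones. All of the 18 lower members stayed below 0 under every alternative tried, and at least 14 of them kept their call in each.

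**Figure D4:**
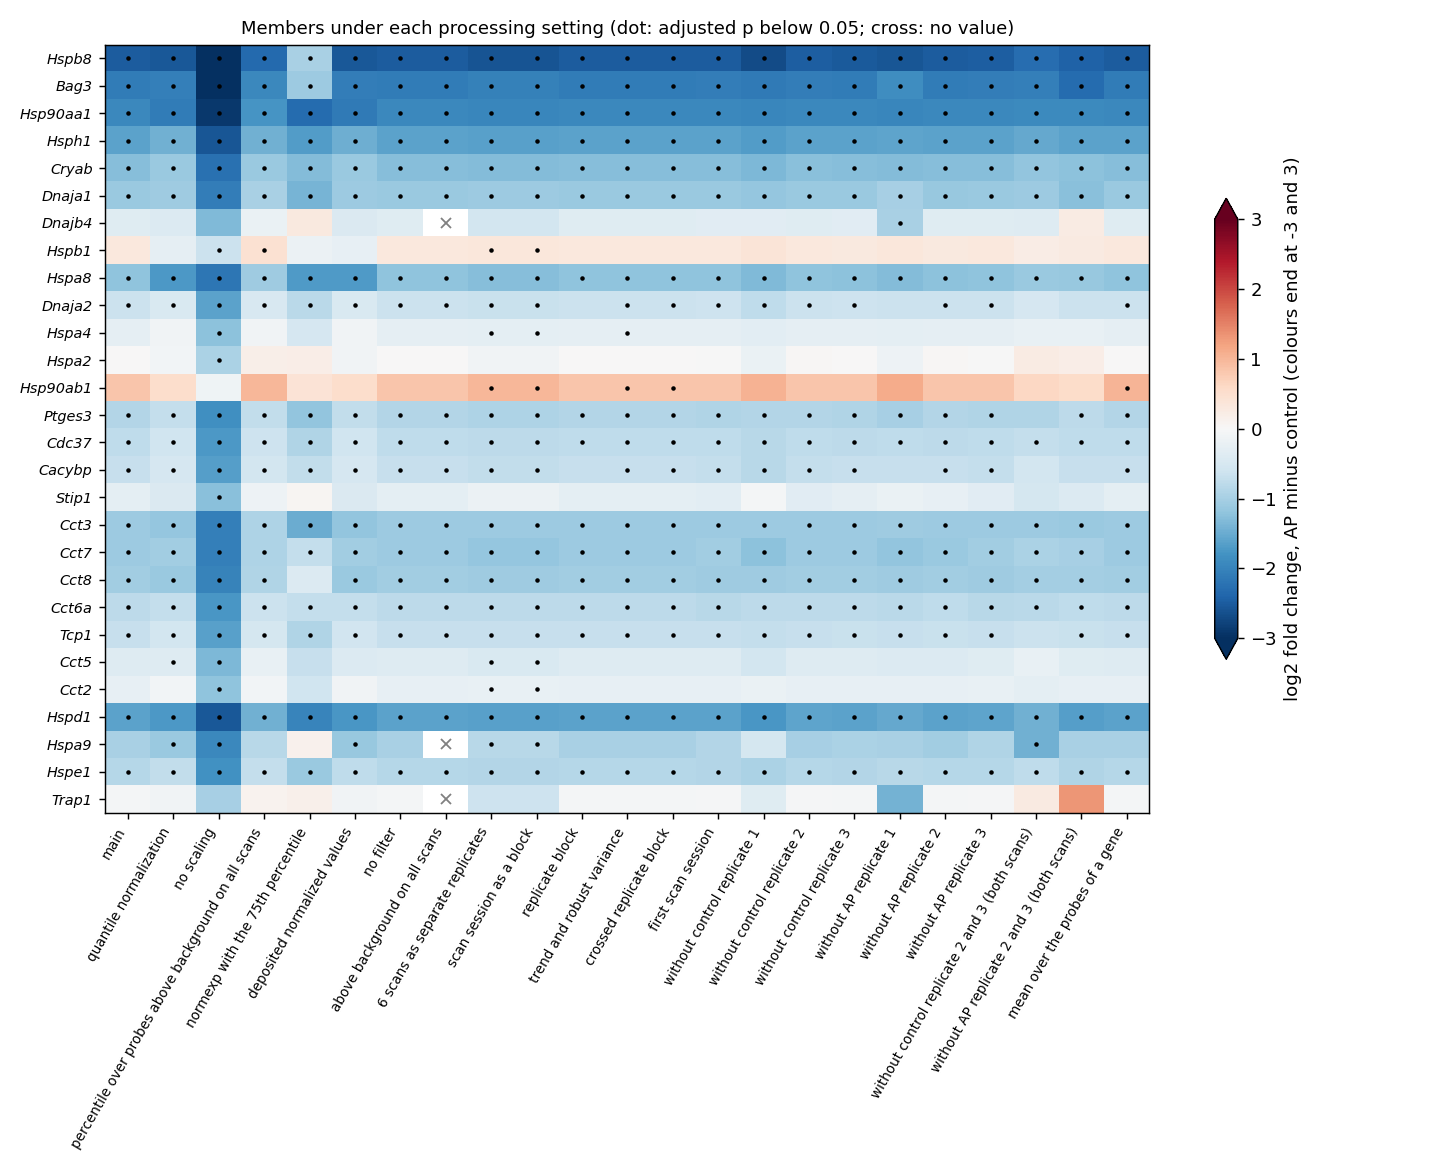
Log2 fold change of each member (down the page) as reported and under each alternative (along the page), in a colour scale from blue, lower in AP, to red, higher in AP. A black dot marks an adjusted p below 0.05 and a cross a member without a value. Blue with dots runs through most members; Hsp90ab1 is red except without scaling, and Hspb1 changes colour between settings.

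The wider chaperone network was described with 8 further lists, drawn up with earlier results of these data known. Genes that HSF1 is known to drive besides the members were mostly lower: 7 of 10 lower and 1 higher (median -1.64, or -1.56 once dim genes take their bound). Zfand2a, a proteasome-associated protein induced by arsenite, had -0.96 and -1.30 on the AP arrays and 3.41 and 3.52 on the control arrays, and was 24.2-fold lower (-4.60 ± 0.16, SE of 2 arrays per group, adjusted p = 0.000732). Hmox1, the haem oxygenase of the stress response, had 1.50 and 1.27 on the AP arrays and 5.16 and 5.34 on the control arrays (14.6-fold lower, adjusted p = 0.000756). Serpinh1, the collagen chaperone HSP47, had 1.09 and 1.26 on the AP arrays and 4.67 and 4.84 on the control arrays (11.9-fold lower, adjusted p = 0.000734). Fibroblast and stellate cell markers, from cells that make collagen, were lower as well (6 of 7), and their part in the Serpinh1 difference was not tested. Each of these 3 genes lay farther from 0 than any member, and each was at -2.73 or lower under every scaling and background correction tried.

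Among the other small heat shock proteins 2 of 4 were higher and 1 was lower. Hspb7, known from heart and muscle, was at background on the AP arrays and called lower with the main processing (adjusted p = 0.00609). With its AP signal set to the lowest signal detected it was 8.61-fold lower, which is not a strict minimum. Under normexp its log2 fold change was only -0.98, and it was still called (0.00589). Hspb2 and Hspb6, also expressed in muscle, were higher, by 0.84 ± 0.12 (adjusted p = 0.00836) and 0.69 ± 0.17 (0.0334), and were at -0.11 and -0.27 without scaling. Both stayed above 0 in the other alternatives of scaling and background correction, without a call under normexp (adjusted p = 0.19 and 0.187). Of the other HSP70 members and exchange factors 4 of 9 were lower and 1 was higher (median -0.40). Bag2, a cochaperone of HSP70 at background on the AP arrays, was lower (adjusted p = 0.0181), by 3.87-fold with its AP signal set to the lowest signal detected. Hspa13, an HSP70 relative of the microsomes, was at -1.03 ± 0.10 (0.00441). Bag6, which escorts membrane proteins, was at 1.04 ± 0.13 (0.00663), or 0.08 without scaling. None of the 3 was called under normexp, where Bag2 was at -0.33, Hspa13 at -0.18 and Bag6 at 0.53.

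Of the other J-domain proteins 6 of 19 were lower, 0 were higher and 13 did not pass (median -0.37), with 7 lower and 2 higher at an unadjusted p below 0.05 in limma. Dnajc5, the cysteine string protein of secretory vesicles, was at background on the AP arrays and lower (adjusted p = 0.0117). Its fold was 1.65 with the AP signal set to the lowest signal detected, and its log2 fold change was 0.06 under normexp. Dnajb12 and Dnajb9, both of the endoplasmic reticulum, were at -1.39 ± 0.09 (0.00201) and -1.35 ± 0.11 (0.00303). Of the other HSP90 cochaperones 4 of 13 were lower and 1 was higher (median -0.23). Fkbp5, an immunophilin that glucocorticoids induce, had 2.39 and 1.83 on the AP arrays and 3.85 and 4.16 on the control arrays (-1.89 ± 0.25, adjusted p = 0.00775). Cdc37l1, a relative of Cdc37, was at -1.21 ± 0.20 (0.0126) and Nudc at -0.68 ± 0.14 (0.0212). Cdc37l1 was at -0.08 under normexp (0.836), and Nudc lost its call under quantile normalization (-0.50, 0.0524).

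Prefoldin subunits and chaperonin cofactors were lower in 4 of 9 cases and higher in 1 (median -0.41, or -0.39 with bounds). Pdcl3, a phosducin-like partner of CCT, was at -1.40 ± 0.16 (adjusted p = 0.00553), and the tubulin cofactors Tbcb and Tbcc were at -0.97 ± 0.11 (0.00591) and 0.98 ± 0.10 (0.00481). Under normexp Pdcl3 was at -0.36 and not called (0.313). Tbcc was called neither there (0.193), under quantile normalization (0.32, 0.108), in the deposited values (0.35, 0.0544) nor without scaling (0.03). Of the other mitochondrial chaperones and proteases 7 of 15 were lower and 0 higher (median -0.54), with 8 lower and 0 higher at an unadjusted p below 0.05 in limma. Grpel1, the exchange factor of mitochondrial HSP70, had 1.34 and 1.20 on the AP arrays and 2.82 and 2.89 on the control arrays (-1.58 ± 0.11, adjusted p = 0.00202). Dnajc15, a J-domain protein of the import motor, was at -1.58 ± 0.10 (0.00179) and Dnajc11 at -1.19 ± 0.12 (0.00423), or -0.41 under normexp (0.26).

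Hsf1 itself had no matched probe. Of 6 tested heat shock factors and regulators 3 were lower and 1 was higher (median -0.33). Hsf2 had -1.32 and -1.85 on the AP arrays and -0.39 and -0.70 on the control arrays (-1.05 ± 0.24, SE of 2 arrays per group, adjusted p = 0.0303), and was not called under normexp (-0.09, 0.81) or with the percentile over detected probes (-0.89, 0.0529). Hsf4, known from the eye lens, was at 1.01 ± 0.12 (0.0061), or 0.05 without scaling and 0.50 without a call under normexp (0.195), and Vcp, an ATPase that extracts ubiquitinated proteins, at -0.76 ± 0.09 (0.00642). The shares of genes called lower at the adjusted threshold in these lists can be read beside the 31.9% over all tested genes, and the unadjusted counts cannot.

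**Figure D5:**
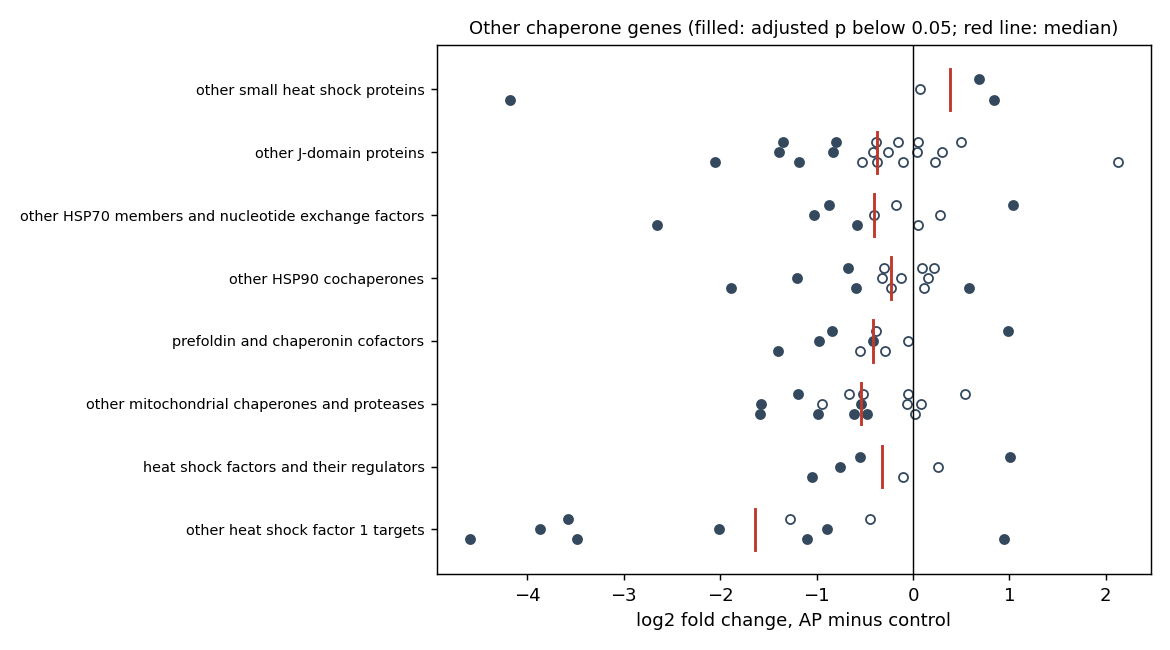
Log2 fold change, AP minus control, of each tested gene (points) of 8 lists of related genes, with filled points at an adjusted p below 0.05 and a red line at the median of each list. The list of other heat shock factor 1 targets has the lowest median, -1.64, and 7 filled points left of 0.

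Markers of several cell types, but not all, differed between the groups. Of the digestive enzyme genes and other markers of pancreatic acinar cells 15 were tested, of which 8 were higher and 0 lower (median log2 fold change 0.56). Without scaling 7 were lower and 0 higher (median -0.40), and under normexp 2 were higher; their summed relative signal (linear, in units of the array's 75th percentile) was 118 and 109 on the AP arrays and 93.4 and 93.4 on the control arrays. All 12 tested genes of the T and B lymphocyte list were higher (sum 143 and 127 on the AP arrays, 6.63 and 5.72 on the control arrays). Most of this sum on the AP arrays was signal of Ccl21, so the sum is not a measure of lymphocyte RNA. This chemokine gene is not specific to T or B cells. Its levels were 6.47 and 6.18 on the AP arrays and 0.07 and 0.12 on the control arrays. Cd79b was at background on the control arrays. Among adipocyte markers 6 of 8 were lower (16.3 and 16.3 on the AP arrays, 447 and 450 on the control arrays), and so were all 6 erythroid markers (29.2 and 30.0 on the AP arrays, 644 and 743 on the control arrays). Of the neutrophil markers 3 of 5 were lower and 1, Ncf1, was higher (0.80 and 1.92 on the AP arrays, 16.6 and 18.1 on the control arrays), and S100a8, Camp and Csf3r, the lower ones, were at background on the AP arrays. Under normexp 1 neutrophil marker was lower and 1 higher (median 0.05). Of the fibroblast and stellate markers 6 of 7 were lower and 0 higher (median -2.12; sum 46.8 and 39.1 on the AP arrays, 295 and 182 on the control arrays, where Dcn has no value on the first control array and Sparc none on the second). Of the duct markers 4 of 6 were lower and 1, Slc4a4, was higher (median -1.64, or -1.36 once dim genes take their bound), with 3 lower under normexp. Of the islet markers 2 of 5 were lower and 1 higher, and of the macrophage markers 1 of 7 was lower and 2 higher. Of 3 tested muscle markers 0 were called (median 0.50). The 1 tested endothelial marker was lower (-0.71), without a call under normexp (-0.37). At an unadjusted p below 0.05 in limma 9 acinar markers were higher and 0 lower, and 6 fibroblast and stellate markers lower and 0 higher. The part of these cells in the differences of the chaperone genes was not tested.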

How the data were processed

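RNA of rat pancreas was measured on 1-colour arrays in 6 deposited scans, 3 per group. Per the file headers, the authors read the arrays with Agilent Feature Extraction 11.0.1.1, and the deposited signals are intensities after background subtraction, with no scaling between arrays; the design was annotated on rn4. The deposited normalized table holds log2 values, made with a tool not given in the sources used here.

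Spots of control probes or with an outlier mark were removed. Log2 signals were averaged per probe, and each array's 75th percentile was subtracted. The fit departed from the design, which took 6 arrays: scans of 1 array were averaged. A probe entered the test if it was well above background on 3 or more scans. AP was compared with control by limma 3.58.1 under R 4.3.3 (lmFit, eBayes), two-sided, with 2 residual degrees of freedom and Benjamini-Hochberg adjustment over all 13213 tested probes; a gene is called at an adjusted p below 0.05. The precision is limited by the 2 arrays per group; depth has no meaning for intensities. Genes were named through RefSeq, and of several probes the brightest over all arrays stood for the gene. Where no scan of a group was above background, the fold is a bound against the lowest signal of any probe above background, or the probe's own where higher. Such a bound is not a strict minimum. Dnajb5, above background on no AP scan, lay above that lowest signal, at -1.76 and -1.49 on the AP arrays. Promoters are RefSeq's, of GRCr8, a different build from the array's. The procedure was tested on simulated data. Other software was matplotlib 3.10.9, pandas 2.3.3, numpy 2.4.6 and Python 3.11.15.

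The members and lists were chosen with earlier results of these data known. All 38 members are accounted for, and of each list of related genes the 3 called genes with the largest change are named. Marker genes are named only where they lie at background, lack a value, go against their list or make up most of its sum. This was seen from their values. The check of pairing correlated the deviations of same-numbered arrays from their group means (r = -0.214 over 13149 probes), so the numbers do not pair the arrays. The alternatives tried were other scalings, background correction, filters, the deposited values, blocks, the variance model, the mean over probes and leaving out scans or arrays.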

Additional observations from a re-analysis of the deposited data

How the results depend on the processing

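Fold changes are relative to the whole array, and 2 arrays per group limit their precision. Without scaling 768 probes were higher and 7795 lower (as reported 3556 and 3726), 4 constitutive chaperones were lower, and Hspb1 (-0.65) and Hspa2 (-0.94) turned negative. Under normexp with the 75th percentile 932 probes were higher and 1720 lower, and with no filter 6800 were higher and 3363 lower. Members called higher, 0 as reported, numbered 1 with the percentile taken over detected probes (1 inducible), 2 with 6 scans as separate replicates or the scan session as a block (1 inducible and 1 constitutive each), and 1 (constitutive) with a robust variance trend, with the mean over the probes of a gene or with the crossed pairing. With the replicate number as a block, which does not pair the arrays by the check of pairing, 1 constitutive chaperone was lower and 2588 probes were higher and 2930 lower. The crossed pairing of arrays, chosen after seeing the data, as was the first scan session alone, gave 3670 higher and 3605 lower. Leaving out each scan or array in turn gave 2120 to 3558 higher and 2521 to 3741 lower probes. Lower members then numbered 15 to 18, of them 6 to 7 inducible, 1 to 2 constitutive, 1 to 3 HSP90 cochaperones, 4 to 5 CCT subunits and 2 to 3 mitochondrial. The lowest counts of probes, of all lower members, of lower HSP90 cochaperones and of CCT subunits came without the second control array, as did the highest mitochondrial count. For the constitutive chaperones the lowest came there and without AP replicate 1 or the second AP array. Of the cause of these changes only the smaller number of arrays is known, and otherwise the cause was not tested.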

Other observations

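A second scan of the same array gave nearly the same values for the chaperone genes. Over the 28 tested members the median size of the log2 difference between both scans was 0.03 for the AP array and 0.03 for the control array, and the largest was 0.30 for the AP array and 0.15 for the control array. In the order of all 8728 tested genes by log2 fold change, 4.7% lay below Hspb8, 6.6% below Bag3, 7.6% below Hsp90aa1, 10.4% below Hspd1 and 81.8% below Hsp90ab1.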
